A study of Homo sapiens with 9 samples.

Results

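The genes described here act in autophagy and in the lysosome, 55 genes set by a list of names, of which 37 belong to the autophagy machinery and its regulators and 18 to the lysosome. All 55 had a probe set annotated to that single symbol, out of 19775 such genes on the array, and the probe set of highest mean over the 9 arrays stood for each gene. Of the 12036 genes that passed the filter on dim signals and were tested, 54 were of the list, and the cathepsin gene CTSZ was the 1 member too dim to test. The cells were HEK293, an established human embryonic kidney line, profiled as total RNA on 54675 probe sets with 1 array per sample. Of the 3 groups of 3 arrays, wild type cells had no treatment, overexpression cells were transfected with a plasmid encoding human MOF, and knockdown cells received small interfering RNA against MOF. MOF is the product of KAT8, an enzyme that places acetyl groups on histone H4, chiefly at lysine 16. The design text also names samples treated with double-stranded RNA against EGFP as a control. None of these is among the 9 samples, so transfection itself is part of any difference from wild type. Nothing in the labels gives the time after transfection or says whether replicates were separate cultures, so the p-values rest on the spread among these arrays alone, which may be technical. In RNA from a whole culture, fewer cells with a transcript and less of it per cell cannot be told apart.

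In autophagy a flat membrane grows around cytoplasm, closes into an autophagosome and fuses with a lysosome, where acid hydrolases digest the contents. The ULK kinase complex starts the process, a lipid kinase complex marks the membrane, a pair of ubiquitin-like conjugation systems attach proteins of the ATG8 family to it, and cargo receptors such as p62 tie the load to the ATG8 proteins. Transcription factors of the MiT/TFE family, TFEB, TFE3 and MITF among them, switch on many of these genes and many lysosomal ones, and MOF and acetylation of histone H4 at lysine 16 have themselves been tied to the transcription of autophagy genes.

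The targeted gene was read first. KAT8 signals were 2909.5, 3797 and 3249 on the wild type arrays, 4594, 4727 and 4763 after overexpression and 432, 706 and 517 after knockdown. Each knockdown array lay below each wild type array, the knockdown mean was 16.6% of the wild type mean, and the log2 change was -2.61 (SE 0.17, adjusted p = 4.72e-05). Overexpression arrays lay above wild type arrays, with a log2 difference of 0.51 that did not pass the test (adjusted p = 0.259). By exact permutation (two-sided) p was 0.1 for both, and 3 against 3 arrays allow none smaller. Of 8 markers of this line 7 were above the filter, with LHX1 below it, and 0 of the 3 measured blood, 3 liver and 3 muscle cell markers were. Of the HEK293 markers, PAX2 and KRT8 were lower after knockdown (log2 -1.07 and -0.57, adjusted p = 0.00513 and 0.0223). Of 4 fibroblast markers COL1A1 alone was above the filter, the list summing to 2474 to 2779 in wild type, 2234 to 3467 after overexpression and 1622 to 2256 after knockdown. The ratio of 3' to 5' ACTB signal, a reading of RNA integrity, was 1.39 to 1.43 on wild type arrays, 1.18 to 1.38 after overexpression and 1.21 to 1.31 after knockdown, and the part of this ratio and of these markers in the results below was not tested. Poly-A transcripts spiked in as controls were 2.22-fold brighter on the 6 arrays numbered 2 or 3 than on the 3 numbered 1, of which each group had 1.

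Values below are the authors' linear MAS5 signals. A log2 change is a difference between group means of log2(signal + 1), with the standard error (SE) of the fit, which is the same for a gene in all 3 comparisons, and a change is called past an adjusted p of 0.05 over all 27307 probe sets tested. After MOF knockdown, 20 of the 54 tested members differed from wild type (37.0%), where 15.7% of all probe sets and 19.4% of genes read by 1 probe set did. The members were chosen with earlier results of these data known, so their shares here and below are descriptions and not an independent test. The 20 were 5 members that rose (9.26%, against 6.82% of probe sets) and 15 that fell (27.8%, against 8.89%). SQSTM1 and ATG2A rose most, and HEXA, ATG10, WIPI1 and TFEB fell most. Groups of 3 arrays did not overlap at 28 members, 9 higher and 19 lower, which is 51.9% of them beside 35.2% of all probe sets, and at each of the 20 called the groups were apart. Of the 20, 14 belonged to the 37 autophagy members (37.8%) and 6 to the 17 tested lysosome members (35.3%). The roles described below hold 3 to 7 tested members each, too few for their counts to be set against the shares of all genes. The median log2 difference over the 54 was -0.10, beside 0.01 over all probe sets tested.

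After MOF overexpression 1 of the 54 members differed from wild type, against 0.476% of probe sets (0.319% higher and 0.157% lower) and 0.631% of genes. It was GLA, which fell. A further 9 members had an unadjusted p under 0.05, which makes 18.5% with GLA, beside 12.3% of all probe sets. The groups did not overlap at 14 members, 6 higher and 8 lower, 25.9% of them beside 17.6% of all probe sets. Knockdown set against overexpression, which shares the knockdown arrays with the first comparison, gave 16 members past the threshold (29.6%), beside 14.5% of probe sets and 18.4% of genes. Of these 6 were higher (11.1%, against 5.75%) and 10 lower (18.5%, against 8.76%) after knockdown, and 30 members did not overlap between the groups (55.6%, against 33.7%). The tested members were bright, their mean signals lying between the 62.0th and 99.0th percentile of all probe sets. Of the 4612 genes at least as bright as the median member, 21.9% passed the test after knockdown, as did 12 of the 27 members at or above that level (44.4%).

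**Figure D1:**
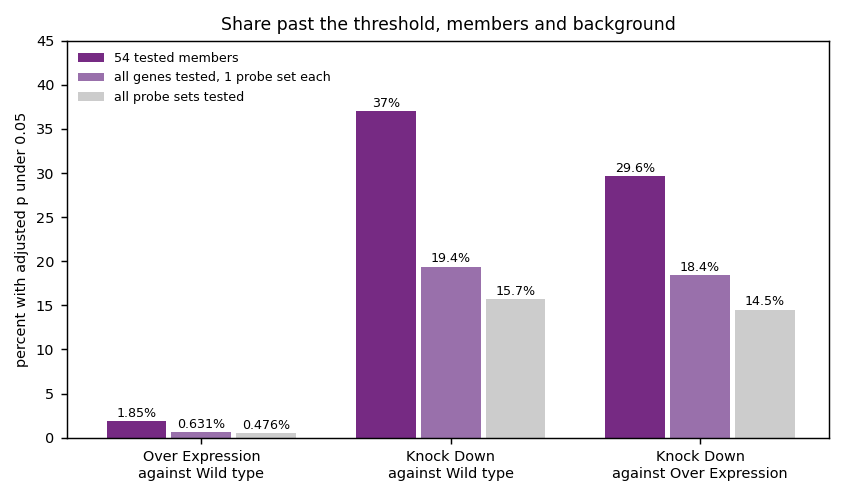
Percent of features with an adjusted p under 0.05 (vertical axis) in each comparison, for the 54 tested members, the 12036 genes tested with 1 probe set each and the 27307 probe sets tested. The members' bars stand at 1.85%, 37.0% and 29.6%, and those of the genes at 0.631%, 19.4% and 18.4%.

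Replicate numbers were shared by the groups, and same-numbered arrays deviated together wherever knockdown was compared (r from 0.11 to 0.36). The highest r were between arrays of replicate 1. Some differently numbered arrays also deviated together, such as wild type replicate 3 with knockdown replicate 2 (r of 0.18). Whether the numbers mark shared batches was not tested. With the replicate number as a block, 28 members passed against wild type, 9 higher and 19 lower (51.9%, beside 28.0% of probe sets), and 28 passed against overexpression (51.9%, beside 26.9%). All 20 and 16 members called without the block kept their call with it. After overexpression 4 members passed against wild type with the block, 1 higher and 3 lower (7.41%, beside 3.74% of probe sets). Of the 20 calls against wild type, 8 held whichever array was left out, those of TFEB, WIPI1, ATG10, ATG4A, SQSTM1, ATP6V1H, TPP1 and HEXA, and the count of members called was 10 without wild type replicate 2 or knockdown replicate 2 and 13 without knockdown replicate 3. Against overexpression 9 of the 16 held, and the count was 9 without knockdown replicate 2. Among the other settings tried, 7 of the 20 calls (PIK3C3, ATG12, MAP1LC3B, GABARAPL2, LAMP1, CTSL and TPP1) and 7 of the 16 (PIK3R4, ATG10, ATG12, MAP1LC3B, LAMP1, CTSL and HEXA) ended under at least 1, with adjusted p up to 0.626 and 0.277.

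**Figure D2:**
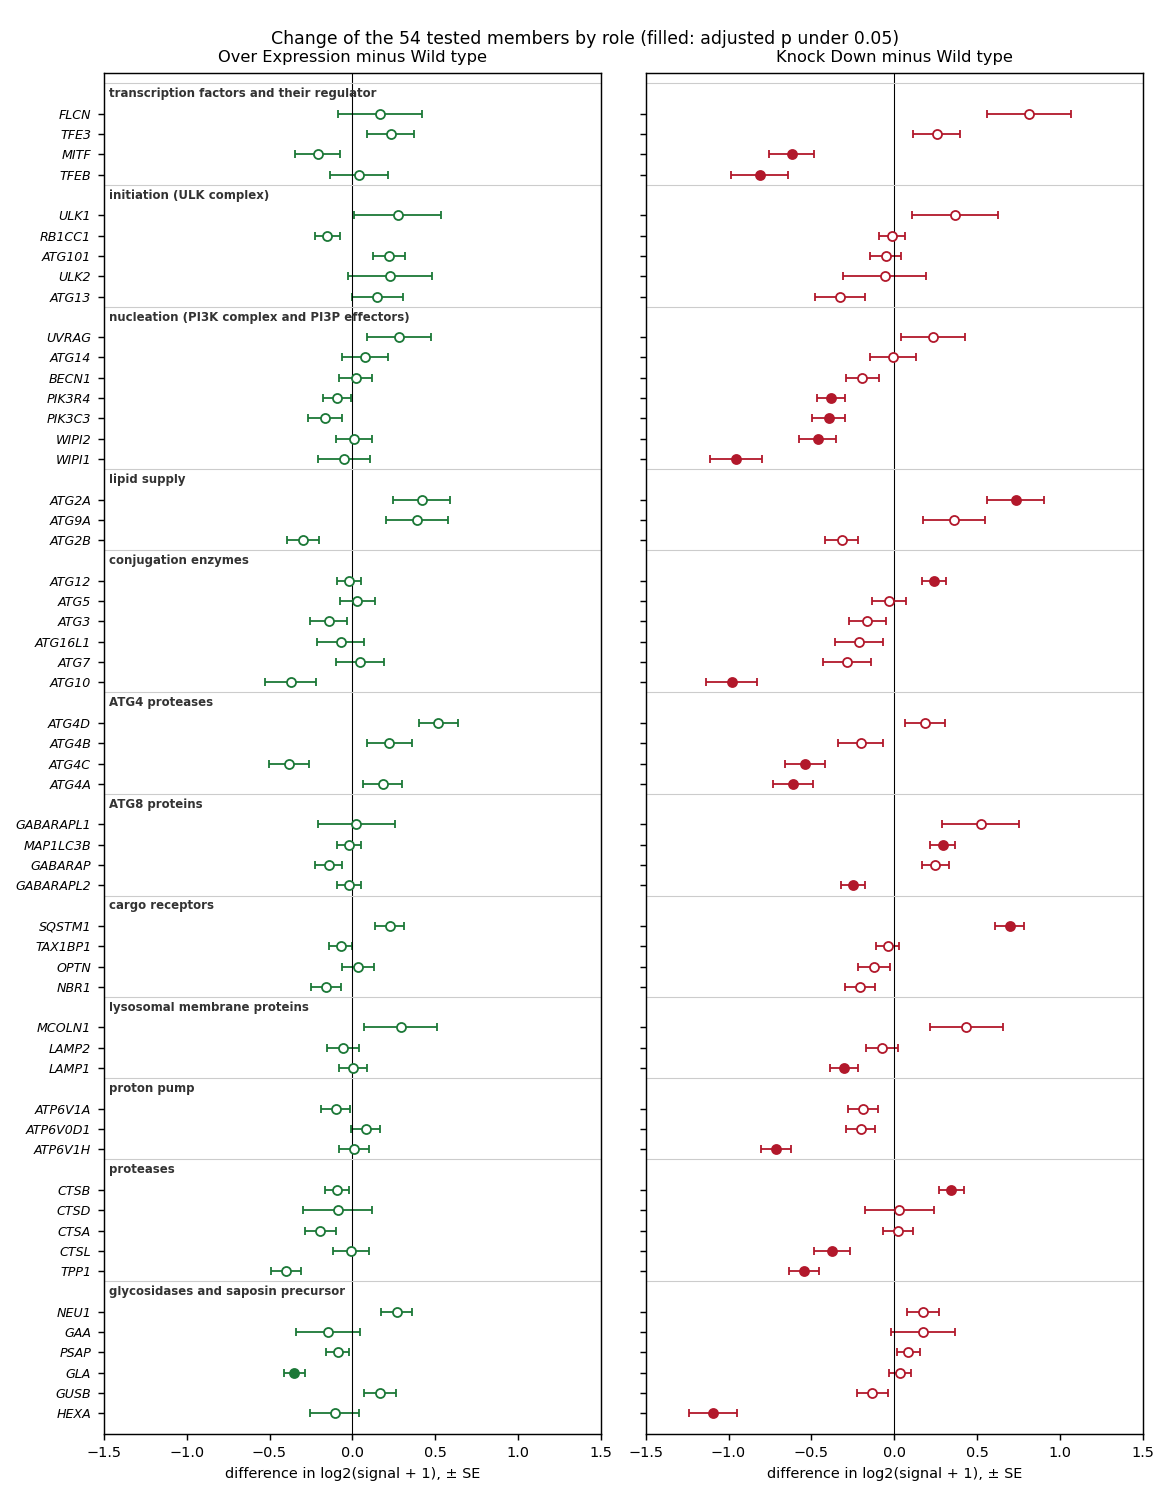
Difference in log2(signal + 1) from wild type, ± SE, for the 54 tested members ordered by role, after overexpression (left) and knockdown (right). Filled points passed an adjusted p of 0.05: GLA at -0.35 on the left, and on the right 20 members from HEXA at -1.09 to ATG2A at 0.73.

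Of the MiT/TFE factors and their regulator, 2 of 4 members fell after knockdown and 0 rose. TFEB, a leucine zipper factor that is a main activator of autophagy and lysosomal genes, had signals of 757, 827 and 693 on the wild type arrays, 878, 659 and 815 after overexpression and 392, 498 and 408 after knockdown. Its 3 knockdown arrays were the lowest of the 9, and wild type and overexpression arrays overlapped. TFEB fell by 0.81 on the log2 scale (SE 0.17, adjusted p = 0.011), 1.76-fold, and its difference from overexpression was -0.85 (adjusted p = 0.00874). MITF, the family member best known from melanocytes, had signals of 2114, 2383 and 2376 on the wild type arrays, 1896, 2038 and 2010 after overexpression and 1419, 1286 and 1814 after knockdown. The knockdown arrays were again the lowest, with no overlap. MITF fell by 0.62 (SE 0.14, adjusted p = 0.0123), and a second probe set gave -0.58 (SE 0.14, adjusted p = 0.0213). Against overexpression its difference of -0.41 did not pass (adjusted p = 0.0677) and passed with the replicate block (adjusted p = 0.0196). The second probe set passed against overexpression without the block, with -0.56 (SE 0.14, adjusted p = 0.0251). The MITF call against wild type ended without replicate 2 of either group (adjusted p up to 0.0523).

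TFE3, a broadly expressed member of the same family, had means of 3288 ± 268 in wild type, 3875 ± 507 after overexpression and 3958 ± 663 after knockdown (SD, n = 3), and its log2 difference of 0.26 did not pass after knockdown (adjusted p = 0.252). A dimmer TFE3 probe set passed, with 0.49 (SE 0.14, adjusted p = 0.0418). FLCN, folliculin, acts with Rag GTPases at the lysosome and keeps TFEB and TFE3 in the cytoplasm. FLCN means were 1012 ± 269.9, 1117 ± 168 and 1796 ± 585 (SD, n = 3), a log2 difference of 0.81 after knockdown (SE 0.25, adjusted p = 0.0507) that just missed the threshold and passed with the replicate block (adjusted p = 0.000725). Its other 2 tested probe sets, both dimmer, passed, with 1.05 (SE 0.29, adjusted p = 0.0344) and 0.84 (SE 0.25, adjusted p = 0.0411).

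MiT/TFE factors bind short palindromes of the E-box kind, so the promoters of the members were searched for the E-box CACGTG and for its longer form TCACGTGA, which reads the same on both strands and contains the first. Windows of 250 bases before to 50 after the start, from RefSeq on GRCh38.p14, were at hand for 46 of the 55 members (57 windows). Those without one were RB1CC1, UVRAG, ATG4D, LAMP2, ATP6V1A, ATP6V1H, CTSB, HEXA and PSAP. CACGTG stood in 9 of these windows (15.8%), beside 7.26% of all 35116 promoter windows of that length, and TCACGTGA in 6 (10.5%), beside 0.98% of all. The members with the longer form were LAMP1, GAA, MCOLN1, CTSA, ATP6V0D1 and ATG3, where in ATG3 it lay after the start, and those with the shorter form alone were NEU1, CTSD and ATG14. Bases before the start are printed for the 9 members that hold a match, with the matches in capitals, since they show where in these promoters the letters stand and how often. The printed bases end at position -1, the last before the start, except in CTSD and NEU1. Those of CTSD run from -67 to -22 and those of NEU1 from -146 to -101.

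LAMP1 promoter, chr13:113297027-113297238 (+ strand): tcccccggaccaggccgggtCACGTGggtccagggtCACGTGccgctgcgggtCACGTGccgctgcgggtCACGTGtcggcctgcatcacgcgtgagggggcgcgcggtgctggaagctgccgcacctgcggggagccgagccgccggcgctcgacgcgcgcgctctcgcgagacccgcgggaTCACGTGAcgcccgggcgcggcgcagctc

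GAA promoter, chr17:80101485-80101580 (+ strand): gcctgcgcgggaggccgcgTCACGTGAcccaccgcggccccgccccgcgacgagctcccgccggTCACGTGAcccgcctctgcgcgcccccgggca

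MCOLN1 promoter, chr19:7522563-7522623 (+ strand): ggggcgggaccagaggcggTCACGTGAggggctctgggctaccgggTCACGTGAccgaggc

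CTSA promoter, chr20:45891273-45891334 (+ strand): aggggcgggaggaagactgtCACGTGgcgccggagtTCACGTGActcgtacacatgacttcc

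ATP6V0D1 promoter, chr16:67481158-67481236 (- strand): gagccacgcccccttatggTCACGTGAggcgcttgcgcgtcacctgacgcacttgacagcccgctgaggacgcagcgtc

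CTSD promoter, chr11:1763949-1763994 (- strand): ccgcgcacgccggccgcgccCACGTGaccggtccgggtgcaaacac

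NEU1 promoter, chr6:31862922-31862967 (- strand): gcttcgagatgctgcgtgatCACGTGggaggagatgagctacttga

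ATG3 promoter, chr3:112561963-112562000 (- strand): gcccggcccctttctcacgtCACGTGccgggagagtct

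ATG14 promoter, chr14:55411831-55411871 (- strand): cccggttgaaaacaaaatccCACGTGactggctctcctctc

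LAMP1 held 6 copies of CACGTG, 4 of them beginning at positions -192 to -142, counted back from the start. The sixth ran across the start and is not printed. GAA and MCOLN1 held 2 of the longer form each. Of the 9 genes 1 was called after knockdown, LAMP1, which fell, where 19.4% of all genes and 37.0% of the members were called. The 9 genes are too few to be set against these shares. The log2 differences of the other 8 ran from -0.20 for ATP6V0D1 to 0.44 for MCOLN1. The windows of TFEB, MITF, SQSTM1 and WIPI1 held neither string, which says only that these letters were not in those windows.

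In the ULK complex, which starts autophagosome formation, 0 of 5 members passed in any of the 3 comparisons. After knockdown the log2 differences of the kinases ULK1 and ULK2 were 0.37 and -0.06, each with a wide SE (0.26 and 0.25). RB1CC1, the scaffold FIP200, had -0.02 (SE 0.08) and ATG101, the partner of ATG13, -0.05 (SE 0.09). For ATG13, the adaptor of the complex, the difference of -0.33 (adjusted p = 0.171) passed with the replicate block (adjusted p = 0.0314). Against overexpression ATG13 had -0.48 (adjusted p = 0.0579) and ATG101 -0.27 (adjusted p = 0.0759), and both passed with the block (adjusted p = 0.00477 and 0.0281). The other tested ATG13 probe sets, both dimmer, did not fall against wild type, with 0.09 and 0.15 (adjusted p = 0.733 and 0.502). Against overexpression they gave -0.04 and 0.03 (adjusted p = 0.89 and 0.907).

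Among the 7 members that make or read the membrane lipid phosphatidylinositol 3-phosphate, 4 fell after knockdown and 0 rose. The fall was largest for WIPI1, a WD repeat protein that binds this lipid, with signals of 1231, 1552 and 1438 on the wild type arrays, 1473, 1456 and 1149 after overexpression and 661, 687 and 827 after knockdown. Its highest knockdown array stood below its lowest array of either other group. WIPI1 fell 1.94-fold, -0.96 (SE 0.16, adjusted p = 0.00293) on the log2 scale, its difference from overexpression was -0.90 (adjusted p = 0.00404), and its second tested probe set fell as well, -1.10 (SE 0.14, adjusted p = 0.000792). WIPI2, which recruits the ATG16L1 complex to the membrane, had signals of 12379, 10225 and 9895 on the wild type arrays, 11850.3, 10636 and 10132 after overexpression and 8771, 7154 and 7631 after knockdown. WIPI2 fell to 72.5% of the wild type mean, -0.46 (SE 0.11, adjusted p = 0.0183), with -0.47 (adjusted p = 0.0173) against overexpression. Of its 3 other tested probe sets 2 fell too (-0.44 and -0.49), and the one with -0.32 did not pass. Its call against wild type ended without replicate 1 of wild type or replicate 2 or 3 of knockdown (adjusted p up to 0.0751), and that against overexpression without overexpression replicate 1 or the same knockdown arrays (adjusted p up to 0.0736).

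PIK3C3, the lipid kinase VPS34, had signals of 4419, 3827 and 3937 on the wild type arrays, 3407, 3619 and 3835 after overexpression and 3350, 2933 and 2970.3 after knockdown. Wild type and knockdown arrays did not overlap, and of the overexpression arrays the first 2 lay between them and the third within the wild type range. PIK3C3 fell by 0.40 after knockdown (SE 0.10, adjusted p = 0.0241), with -0.23 (adjusted p = 0.155) against overexpression. Its other tested probe sets, both dimmer, did not pass against wild type, with -0.40 and -0.33 (adjusted p = 0.413 and 0.386). Against overexpression the first gave -0.42 (adjusted p = 0.398) and the second passed, with -0.85 (SE 0.24, adjusted p = 0.0392). PIK3R4, the regulatory subunit VPS15 of the same kinase, had signals of 4345, 4257 and 4100.3 on the wild type arrays, 4015, 3868 and 4026 after overexpression and 3239, 3163 and 3364 after knockdown. Its 3 groups did not overlap, wild type being highest and knockdown lowest. PIK3R4 fell by 0.38 (SE 0.08, adjusted p = 0.0129), with -0.29 (adjusted p = 0.044) against overexpression. The PIK3C3 call held only in the fit without knockdown replicate 1 (adjusted p up to 0.0891 in the other 5), and the PIK3R4 call ended without replicate 2 of either group (adjusted p up to 0.0557). That of PIK3R4 against overexpression ended without any 1 of the 6 arrays (adjusted p up to 0.142). BECN1, the core subunit Beclin 1, did not pass with its brightest probe set, -0.19 (SE 0.10, adjusted p = 0.216), and a dimmer one passed, -0.40 (SE 0.10, adjusted p = 0.018). ATG14 and UVRAG, which give the kinase its autophagy and endosome forms, had -0.01 (SE 0.14) and 0.24 (SE 0.19), neither past the threshold.

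Of the 3 members that supply lipid to the growing membrane, 1 rose after knockdown. ATG2A, a lipid transfer protein, had signals of 1108, 1209 and 941 on the wild type arrays, 1771, 1264 and 1343 after overexpression and 2173, 1572 and 1699.6 after knockdown. Knockdown arrays lay above wild type arrays and overlapped those of overexpression. ATG2A rose 1.66-fold, 0.73 (SE 0.17, adjusted p = 0.0167), with 0.42 after overexpression (adjusted p = 0.357). Its call ended without replicate 3 of wild type or replicate 1 of knockdown (adjusted p up to 0.0605). Its paralog ATG2B did not pass, with -0.32 after knockdown (adjusted p = 0.0502, and 0.0194 with the replicate block) and -0.30 after overexpression (adjusted p = 0.259), with its 3 other tested probe sets between 0.03 and 0.20 after knockdown. ATG9A, the membrane protein of the vesicles that seed the autophagosome, had 0.36 (SE 0.19, adjusted p = 0.22) after knockdown.

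Of 6 genes of the conjugation systems, 1 fell and 1 rose after knockdown. ATG10, the enzyme that joins ATG12 to ATG5, had signals of 1102, 1111 and 1092 on the wild type arrays, 897, 905 and 757 after overexpression and 507, 522 and 655 after knockdown. The 3 groups did not overlap, with overexpression between the others. ATG10 fell 1.97-fold, -0.98 (SE 0.15, adjusted p = 0.00223), a second probe set gave -0.97 (SE 0.15, adjusted p = 0.002), and the difference from overexpression was -0.61 (adjusted p = 0.0218). The second probe set did not pass against overexpression, with -0.41 (SE 0.15, adjusted p = 0.0831). ATG12, the ubiquitin-like protein of that step, had signals of 9067, 8912 and 9473 on the wild type arrays, 8780.2, 9509.5 and 8784 after overexpression and 10616, 10747 and 11089 after knockdown. The knockdown arrays were the highest of the 9. ATG12 rose by 0.24 (SE 0.07, adjusted p = 0.0466), with 0.26 (adjusted p = 0.0358) against overexpression, and the 2 other probe sets gave 0.07 (SE 0.13, adjusted p = 0.782) and 0.31 (SE 0.38, adjusted p = 0.63). The ATG12 call against wild type ended without any 1 of the 6 arrays (adjusted p up to 0.149) and that against overexpression without any but overexpression replicate 2 (adjusted p up to 0.123). For ATG10 the call against overexpression ended without replicate 1 or 2 of either group (adjusted p up to 0.0782). ATG3 and ATG7, the enzymes that pass ATG8 proteins on, ATG5 and its partner ATG16L1 did not pass, with log2 differences of -0.16, -0.29, -0.03 and -0.21.

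ATG4 proteases trim ATG8 proteins before conjugation and release them afterwards, and 2 of 4 fell after knockdown. ATG4A signals were 3840.2, 4061 and 3483 on the wild type arrays, 4179, 4202 and 4518 after overexpression and 2880.5, 2475 and 2133 after knockdown. Every knockdown array was below every wild type array, and every overexpression array above. ATG4A fell by 0.61 (SE 0.12, adjusted p = 0.00725), its difference after overexpression was 0.18 (adjusted p = 0.583), and knockdown against overexpression gave -0.79 (adjusted p = 0.0021). ATG4C signals were 6634, 8619.5 and 8222 on the wild type arrays, 5368, 6664 and 5910 after overexpression and 5366, 5774 and 4921 after knockdown. Here overexpression arrays reached from within the knockdown range into the wild type range. ATG4C fell by 0.54 after knockdown (SE 0.12, adjusted p = 0.0132) and had -0.38 after overexpression (adjusted p = 0.238). The ATG4C call ended without replicate 2 of wild type or replicate 3 of knockdown (adjusted p up to 0.0614). ATG4B, read by a probe set whose type can also bind related sequences, had -0.20 (adjusted p = 0.343), and ATG4D had 0.19 (adjusted p = 0.318). Against overexpression ATG4B had -0.43 (adjusted p = 0.0579) and ATG4D -0.33 (adjusted p = 0.0831), and both passed with the replicate block (adjusted p = 0.00439 and 0.0487).

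**Figure D3:**
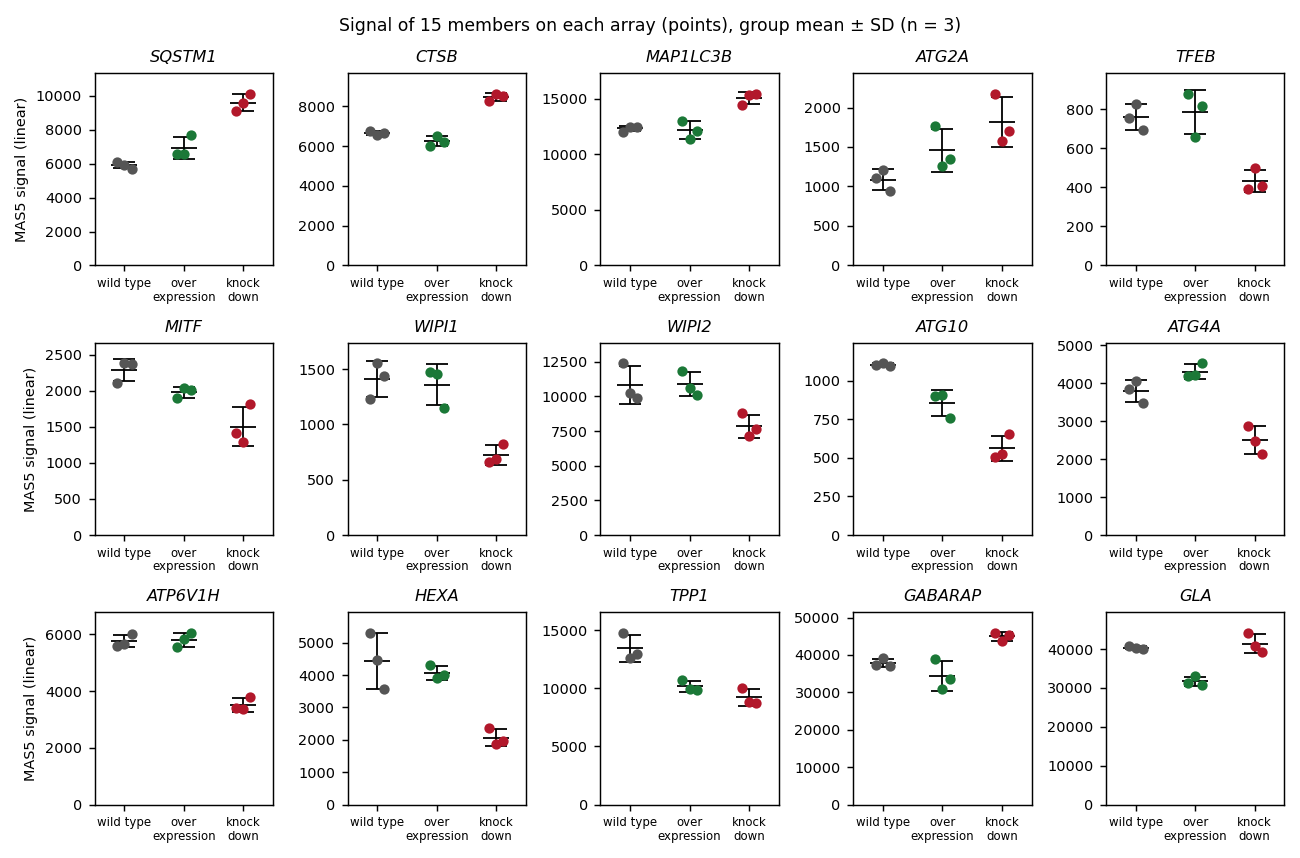
MAS5 signal (linear, from 0) of 15 members on each of the 9 arrays, as points in replicate order within each group, with the group mean ± SD (n = 3). Knockdown points of SQSTM1, CTSB and MAP1LC3B lie above all others, those of TFEB, WIPI1, ATP6V1H and HEXA below, and GLA is lowest after overexpression.

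Of the 4 ATG8 proteins, which coat the autophagosome membrane, 1 rose and 1 fell after knockdown. MAP1LC3B, the LC3B used as an autophagosome marker, had signals of 12035, 12439 and 12472 on the wild type arrays, 12994, 11375 and 12110.3 after overexpression and 14453, 15349.5 and 15425 after knockdown. The knockdown arrays were the 3 highest, and wild type and overexpression arrays overlapped. MAP1LC3B rose 1.22-fold, 0.29 (SE 0.07, adjusted p = 0.0236), with 0.31 (adjusted p = 0.0183) against overexpression. Its second probe set did not pass, with 0.22 (SE 0.07, adjusted p = 0.0649) against wild type and 0.20 (adjusted p = 0.0931) against overexpression. GABARAP, the founding protein of the other ATG8 branch, had signals of 37297, 39067 and 37158 on the wild type arrays, 38828, 30861 and 33589 after overexpression and 45885, 43670.4 and 45244 after knockdown. The knockdown arrays were again the 3 highest. GABARAP rose against overexpression, 0.39 (SE 0.08, adjusted p = 0.00954), while its difference from wild type of 0.25 missed the threshold (adjusted p = 0.0602) and passed with the replicate block (adjusted p = 0.0204).

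GABARAPL2, also called GATE-16, had means of 23401 ± 386 in wild type, 23131 ± 1225 after overexpression and 19732 ± 1350.1 after knockdown (SD, n = 3). GABARAPL2 fell by 0.25 (SE 0.07, adjusted p = 0.0407), and against overexpression its difference was -0.23 (adjusted p = 0.0569), which passed with the replicate block (adjusted p = 0.0114). GABARAPL1 had 0.52 (SE 0.23, adjusted p = 0.152) after knockdown, passed with the block (adjusted p = 0.0104), and its dimmer probe set passed without it, 0.49 (SE 0.12, adjusted p = 0.0193). The calls of MAP1LC3B and GABARAPL2 against wild type each held only without knockdown replicate 1 (adjusted p up to 0.0848 and 0.139 in the other 5 fits), and that of MAP1LC3B against overexpression ended without replicate 2 or 3 of either group (adjusted p up to 0.0724).

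SQSTM1 encodes p62, the receptor that carries ubiquitinated cargo to the autophagosome and is itself degraded with it. Its signals were 6102, 5949 and 5716 on the wild type arrays, 6583, 6557 and 7672 after overexpression and 9131, 9548 and 10118 after knockdown. The 3 groups did not overlap, with wild type lowest and knockdown highest. SQSTM1 rose 1.62-fold after knockdown, 0.70 (SE 0.09, adjusted p = 0.00078), and was higher than after overexpression by 0.47 (adjusted p = 0.00618). After overexpression the difference of 0.22 from wild type did not pass (adjusted p = 0.335). Of its 3 other tested probe sets, 1 rose, 1.17 (SE 0.14, adjusted p = 0.000567), and the other two gave 0.41 (SE 0.26, adjusted p = 0.322) and 0.00 (SE 0.28, adjusted p = 0.999). The other 3 cargo receptors did not pass with their brightest probe sets, the optic neuropathy gene OPTN at -0.12, NBR1 at -0.21 and TAX1BP1 at -0.04. NBR1 passed with the replicate block (adjusted p = 0.0453), while its dimmer tested probe set gave -0.02 without the block (SE 0.11, adjusted p = 0.927). A dimmer OPTN probe set fell, -0.58 (SE 0.12, adjusted p = 0.00787).

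On the lysosomal membrane 1 of 3 members fell after knockdown. LAMP1, the abundant glycoprotein that lines the lysosome and whose promoter is printed above, had signals of 21933, 20553 and 18367 on the wild type arrays, 20881, 20078 and 19838 after overexpression and 17403, 16853 and 15094 after knockdown. Knockdown arrays were below all others, and the wild type and overexpression means differed by less than their spread. LAMP1 fell by 0.30 (SE 0.08, adjusted p = 0.0345), with -0.30 (adjusted p = 0.0351) against overexpression, but its 3 other tested probe sets ran from -0.62 to 0.17 and did not pass. The LAMP1 call ended without replicate 1 or 2 of wild type or replicate 2 or 3 of knockdown (adjusted p up to 0.124), and against overexpression without any array but knockdown replicate 1 (adjusted p up to 0.127). LAMP2, its relative that is also the receptor of chaperone-mediated autophagy, had -0.07 (SE 0.10, adjusted p = 0.656). MCOLN1, the calcium channel mucolipin 1, had 0.44 (SE 0.22, adjusted p = 0.209) and passed with the replicate block (adjusted p = 0.0457).

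The proton pump acidifies the lysosome, and 1 of its 3 listed subunits fell. ATP6V1H, a regulatory subunit of the cytosolic part, had signals of 5596, 5671 and 6022 on the wild type arrays, 5534, 5823 and 6048 after overexpression and 3397, 3357 and 3799.7 after knockdown. Its knockdown arrays stood apart from the other 6, which overlapped. ATP6V1H fell 1.64-fold, -0.71 (SE 0.09, adjusted p = 0.000692), and by 0.72 against overexpression (adjusted p = 0.000703), the smallest adjusted p of any member in both comparisons. ATP6V0D1, of the membrane part, had -0.20 (SE 0.09, adjusted p = 0.149), which passed with the replicate block (adjusted p = 0.0241), as did its -0.28 against overexpression (adjusted p = 0.0552, and 0.00439 with the block). ATP6V1A, the ATP-binding subunit, had -0.19 (SE 0.09, adjusted p = 0.179).

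Of 5 tested lysosomal proteases 1 rose and 2 fell after knockdown. CTSB, the cysteine protease cathepsin B, had signals of 6764, 6585 and 6646 on the wild type arrays, 6017, 6515 and 6229 after overexpression and 8270.4, 8629.8 and 8498 after knockdown. Knockdown arrays were the highest and overexpression arrays the lowest, with no overlap between groups. CTSB rose 1.27-fold, 0.34 (SE 0.07, adjusted p = 0.0116), and by 0.44 against overexpression (adjusted p = 0.00392), and 2 of its 4 other tested probe sets rose too (0.65 and 0.51), with the others at 0.20 and 0.14. Its call against wild type ended without replicate 2 of either group (adjusted p up to 0.0518). TPP1, a serine protease whose loss causes a childhood neuronal storage disease, had signals of 14777, 12607 and 12966 on the wild type arrays, 10718, 9916 and 9882 after overexpression and 10052, 8822 and 8785 after knockdown. Wild type arrays were the highest, and overexpression and knockdown arrays overlapped. TPP1 fell by 0.54 after knockdown (SE 0.09, adjusted p = 0.00308) and had -0.40 after overexpression (adjusted p = 0.0975). Its other 3 tested probe sets did not pass (-0.40, -0.25 and 0.60), and with the mean of its probe sets the call ended (adjusted p = 0.626).

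CTSL, cathepsin L, had means of 5722 ± 185 in wild type, 5707 ± 707 after overexpression and 4422 ± 375 after knockdown (SD, n = 3). CTSL fell by 0.37 (SE 0.11, adjusted p = 0.0393), with -0.36 (adjusted p = 0.0462) against overexpression. Leaving out any array but knockdown replicate 3 ended its call against wild type (adjusted p up to 0.115), and leaving out any but overexpression replicate 1 ended that against overexpression (adjusted p up to 0.157). CTSA and CTSD, a carboxypeptidase and the main aspartic protease, had 0.02 (SE 0.09) and 0.03 (SE 0.21) and did not pass. CTSA passed against overexpression with the replicate block alone (0.22, adjusted p = 0.14, and 0.0445 with the block). The untested CTSZ, a carboxypeptidase of the cathepsin family, had signals of 195, 219 and 214 on the wild type arrays, 154, 228 and 132 after overexpression and 116, 71.8 and 102 after knockdown, lowest on the 3 knockdown arrays.

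Of the 5 glycosidases and the saposin precursor, 1 fell after knockdown. HEXA, the alpha subunit of the hexosaminidase that is missing in Tay-Sachs disease, had signals of 5302, 4464 and 3566 on the wild type arrays, 4320.5, 3901 and 4004 after overexpression and 2362, 1873 and 1957 after knockdown. Its 3 knockdown arrays were the lowest, with the widest spread in wild type. HEXA fell 2.14-fold, -1.09 (SE 0.15, adjusted p = 0.000992), the largest fall of any tested member, and its difference from overexpression was -0.99 (adjusted p = 0.00191). Its 2 dimmer tested probe sets gave -0.22 (SE 0.25, adjusted p = 0.593) and -0.18 (SE 0.36, adjusted p = 0.784), and with the mean of its probe sets the call against overexpression ended (adjusted p = 0.0617). GAA, NEU1 and GUSB, which cut glycogen, sialic acids and glucuronic acid, and PSAP, the precursor of the saposins, did not pass after knockdown (log2 0.17, 0.17, -0.13 and 0.08). Against overexpression GUSB had -0.30 (adjusted p = 0.0586) and passed with the replicate block (adjusted p = 0.0147).

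**Figure D4:**
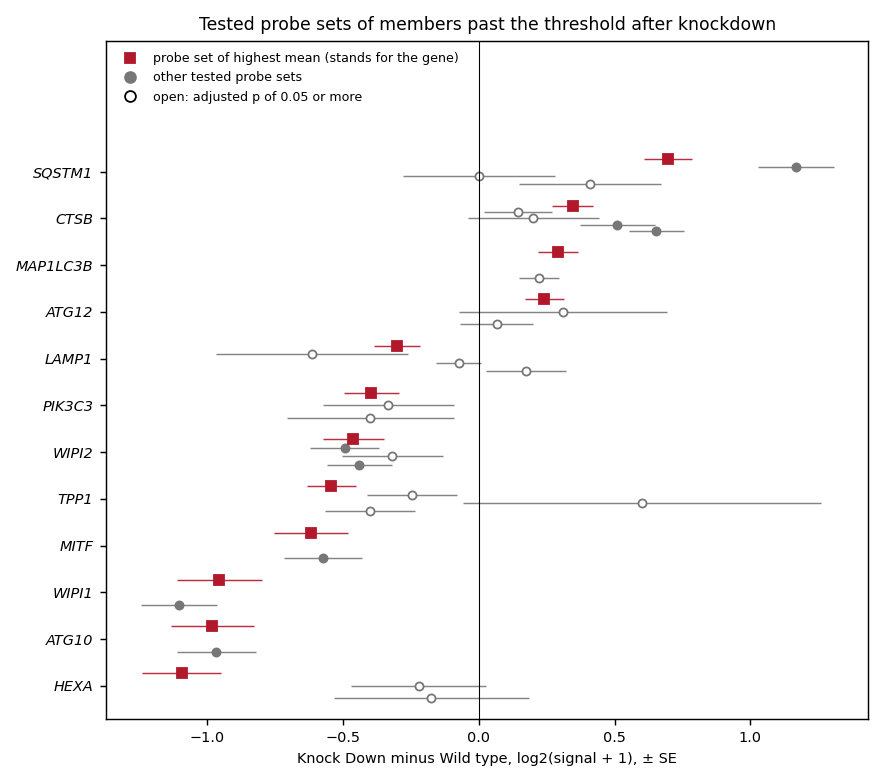
Knockdown minus wild type in log2(signal + 1), ± SE, for every tested probe set of the 12 called members that have more than 1. Squares are the probe sets that stand for the gene, circles the others, filled where the adjusted p was under 0.05. Of the 26 other probe sets 24 have the sign of the chosen one and 8 pass, and 1 each of LAMP1 and TPP1 lies on the other side of 0.

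Overexpression gave 1 call. GLA, alpha-galactosidase A, the enzyme missing in Fabry disease, had signals of 40797, 40401 and 39943 on the wild type arrays, 31193, 33052 and 30778 after overexpression and 44174, 40799.6 and 39228 after knockdown. All 3 overexpression arrays lay below all 6 others, and wild type and knockdown overlapped. GLA fell by 0.35 (SE 0.06, adjusted p = 0.044), the difference of knockdown from wild type was 0.03 (adjusted p = 0.764), and knockdown was higher than overexpression by 0.39 (adjusted p = 0.00353). The call against wild type ended without any 1 of the 6 arrays (adjusted p up to 0.213), and also with no filter, quantile normalization, no trend, replicates 2 and 3 only or the 2 groups alone (adjusted p up to 0.176). Next were TPP1 at -0.40 (adjusted p = 0.0975) and ATG4D, the protease, with means of 987 ± 54.3, 1415 ± 47.7 and 1123 ± 63.4 (SD, n = 3), at 0.52 (adjusted p = 0.101). The other members ran from -0.38 for ATG4C to 0.42 for ATG2A, with SEs over the 54 of 0.06 to 0.26, and the median difference was near 0, with 27 members positive and 27 negative.

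A wider set of 111 genes around the members, in 5 lists, was read from the same fit, of which 102 were measured and 99 tested. After knockdown 3 rose and 19 fell, 22.2% in all, beside 19.4% of all genes. Against overexpression 3 were higher and 20 lower, 23.2% beside 18.4%. With higher and lower calls summed, both shares were near those of the whole array, but most of these calls were lower after knockdown. Of all probe sets 6.82% rose and 8.89% fell after knockdown. Against overexpression 5.75% of all probe sets were higher and 8.76% lower. The median log2 difference of the 99 from wild type after knockdown was -0.15, beside 0.01 over all probe sets tested. After overexpression 0 passed. An unadjusted p under 0.05 was reached by 14 of the 99, a share near the 13.96% of all genes. In 14 further subunits and partners of the proton pump 2 rose and 5 fell, 7 of the 14. ATP6V0A2 and ATP6V1C1, of the membrane and cytosolic parts, fell by 0.55 (SE 0.09, adjusted p = 0.00383) and 0.54 (SE 0.08, adjusted p = 0.00243), and ATP6AP2, an accessory protein, by 0.47 (SE 0.11, adjusted p = 0.0177). ATP6V0C and ATP6AP1, of the membrane part and its accessory proteins, rose by 0.29 and 0.37. The first call ended without replicate 1 or 3 of wild type or replicate 2 or 3 of knockdown (adjusted p up to 0.082), and the second held only without wild type replicate 1 (adjusted p up to 0.151). ATP6AP2 lost its call without replicate 2 or 3 of wild type or replicate 1 of knockdown (adjusted p up to 0.0645).

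Of 30 other tested lysosomal hydrolases and membrane proteins 0 rose and 5 fell (16.7%). Of all probe sets 8.89% fell, and 19.4% of all genes were called in either direction. CTSH, cathepsin H, had signals of 4182, 3941 and 3903 on the wild type arrays, 3582, 3372 and 3160.5 after overexpression and 1599.8, 1808 and 1717 after knockdown. It fell 2.35-fold, -1.23 (SE 0.10, adjusted p = 0.000107), further than any of the 54 members. LIPA, the acid lipase of cholesterol esters, had signals of 16127, 17362 and 16975 on the wild type arrays, 12541, 17134 and 15830 after overexpression and 10464, 10927 and 9528 after knockdown and fell by 0.71 (SE 0.11, adjusted p = 0.00228). SMPD1, acid sphingomyelinase, fell by 0.72 (SE 0.18, adjusted p = 0.0222), which did not pass without replicate 2 or 3 of wild type or replicate 2 of knockdown (adjusted p up to 0.083).

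Among 22 genes of nutrient sensing at the lysosome, 0 rose and 2 fell. These 9.09% were near the 8.89% of all probe sets that fell and below the 19.4% of genes called in either direction. LAMTOR3, of the complex that anchors Rag GTPases, fell by 0.53 (SE 0.08, adjusted p = 0.002), and SLC38A9, the lysosomal arginine sensor, by 0.48 (SE 0.09, adjusted p = 0.00699). Against overexpression FNIP2, a partner of folliculin, was the 1 gene of that list that was higher (0.40, adjusted p = 0.0383), a call that held only without overexpression replicate 1 (adjusted p up to 0.113). Among 23 further genes of autophagosome formation and fusion 0 rose and 5 fell (21.7%), with a list median of -0.26 beside 0.01 for all probe sets tested. VPS16 and VPS33A, of the HOPS tethering complex, fell by 0.51 and 0.44 (SE 0.11 and 0.11, adjusted p = 0.0112 and 0.0202), and the fusion SNARE VAMP8 by 0.45 (SE 0.10, adjusted p = 0.0153). The VAMP8 call ended without wild type replicate 2 (adjusted p = 0.0706), and VPS33A did not pass without replicate 2 of wild type or replicate 1 or 3 of knockdown (adjusted p up to 0.0896).

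Of 10 further selective autophagy receptors 1 rose and 2 fell (30.0%), where 19.4% of all genes were called in either direction. These 10 genes are too few to be set against that share. BNIP3L, a receptor for mitochondria also called NIX, fell by 0.52 (SE 0.10, adjusted p = 0.00725), and the mitochondrial receptor FUNDC1 by 0.43 (SE 0.11, adjusted p = 0.0251). BNIP3, the close relative of BNIP3L, rose by 0.36 (SE 0.10, adjusted p = 0.0374), with signals of 17593, 13871 and 13915 on the wild type arrays, 14242, 13914 and 12516 after overexpression and 20649, 18867 and 18356 after knockdown. The BNIP3 call held only without wild type replicate 1 (adjusted p up to 0.14), and FUNDC1 did not pass without replicate 3 of wild type or replicate 2 or 3 of knockdown (adjusted p up to 0.0954). With the mean of a gene's probe sets ATP6V0A2, SMPD1 and VPS33A did not pass (adjusted p = 0.0778, 0.0718 and 0.0918), and without a trend ATP6AP2 and FUNDC1 did not (adjusted p = 0.0537 and 0.0567). The 3 genes that rose also lost their calls without a trend, ATP6V0C there alone (adjusted p = 0.0669), ATP6AP1 also with no filter or quantile normalization (adjusted p up to 0.106), and BNIP3 also with no filter or the 2 groups alone (adjusted p up to 0.0887). FNIP2 lost its call with no filter, no trend, the 2 groups alone or the mean of its probe sets (adjusted p up to 0.073).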

How the data were processed

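Total RNA of 9 HEK293 samples was labelled with biotin and hybridised to 1 array each, per the labels' protocols, and titles gave the groups. The deposited values are linear intensity signals. The submitters' processing notes name MAS5, without a version. Each array had a 2% trimmed mean of 1500.2, so a change in total RNA cannot be seen. Here log2(signal + 1) was fitted with limma 3.58.1 in R 4.3.3 (eBayes with a trend), all 9 arrays in 1 fit with 6 residual degrees of freedom, after 62 control probe sets and those below the median mean log2 signal (7.564, a signal of about 188) were left out. Tests were two-sided with Benjamini-Hochberg adjustment over 27307 probe sets and a threshold of 0.05. The fit was tested on simulated data. With 3 arrays a group, their number limits the precision.

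Gene names come from GEO's platform annotation: 41097 of 54675 had 1 symbol, 1801 several and 11777 none, and 41043 matched a RefSeq gene by Entrez ID. The members, their roles and the wider lists were chosen with earlier results of these data known. Signals by array are given for SQSTM1, TFEB and called members, up to the 20 of smallest p, and up to 3 called genes are named from each wider list; other probe sets, CTSZ, ATP6V0C, ATP6AP1 and FNIP2 were added after their values were seen. Same-numbered arrays deviated together in each pair of knockdown with wild type (r from 0.14 to 0.36) or with overexpression (0.11 to 0.35). The pairing by number comes from these values. For overexpression with wild type r was 0.447, 0.16 and 0.083 at replicates 1, 2 and 3. Differently numbered arrays had r from -0.28 to 0.18 for knockdown with wild type and from -0.28 to 0.089 for knockdown with overexpression. For overexpression with wild type they had -0.38 to 0.28. Correlations within groups ran from 0.925 to 0.935. Settings tried were the pseudocount, the filter, quantile scaling, no trend, the block, a term for replicate 1, fewer arrays and the mean of a gene's probe sets. Figures were drawn with matplotlib 3.10.9.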

Additional observations from a re-analysis of the deposited data

How the results depend on the processing

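No called member changed sign under any setting. With the replicate block the counts of members called were 4 for overexpression, 28 for knockdown and 28 for knockdown against overexpression, and of all probe sets 1022, 7637 and 7334. With a term for the replicate 1 arrays they were 4, 29 and 28 members, and 1109, 7706 and 7425 probe sets. Within replicates 2 and 3 the members called were 0, 21 and 20, and 220 probe sets passed after overexpression. For overexpression the members called were also 0 with no filter and with quantile normalization. They were 0 as well without a trend (70 probe sets) and with only the 2 groups compared (27 probe sets). With the mean of a gene's probe sets 2 members were called. Leaving out 1 array gave 0 members and 25 to 97 probe sets for overexpression, 10 to 18 members and 2213 to 3653 probe sets for knockdown, and 9 to 16 members and 2040 to 3289 probe sets for knockdown against overexpression. The cause of these shifts was not tested. Quantile scaling left the median of all probe sets within 0.01 of 0 in each comparison. CTSZ was too dim for a test, and the SEs of ULK1, ULK2 and FLCN, 0.26, 0.25 and 0.25, allow no statement on small differences.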
